A study of Mus musculus with 6 samples.

Results

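Grin2c encodes GluN2C, a subunit of the NMDA type of glutamate receptor, and its RNA was followed here in mouse hearts. It was 1 row of a table of 14133 genes, and it was selected on its own values: it stood among the genes with the largest differences between the 2 groups in these libraries. Its levels below are therefore a description, with no test. It is set beside the 11 other rows whose names start with Grin, Gria or Grik and the 4 rows of metabotropic receptors, which enter counts only.

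RNA came from whole hearts of C57BL/6 mice aged 1 month. The first group, Trx1 flox/flox/MHC-Cre, carried floxed alleles of the thioredoxin-1 gene (Txn1) together with Cre recombinase under the cardiomyocyte promoter of Myh6 (replicates 6, 7 and 8). The second, Trx1 flox/flox, carried the same floxed alleles and served as control (replicates 3, 4 and 5). No group had Cre without floxed alleles, so Cre and loss of Txn1 cannot be told apart. Whether replicates came from different animals is not stated, so p-values measure only the spread between these libraries, which may be technical.

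Reads per library, as recovered from the deposited values, ranged between 8347636 and 10236783 in the first group and between 9257984 and 13705281 in controls. Txn1, the targeted gene, stood at 6.95, 6.90 and 7.13 log2 CPM in replicates 6, 7 and 8, against 6.640, 6.996 and 7.042 log2 CPM in control replicates 3, 4 and 5 (log2 difference 0.10 ± 0.15, SE, limma adjusted p = 0.72). CPM is a gene's reads scaled to the size of its library. Since Txn1 RNA did not fall, the first group is called hearts labelled knockout, and each direction below rests on those labels; the labels do not say which exons are floxed. All 16 cardiomyocyte markers examined had reads, with Myh6 at 15.06 to 15.73 log2 CPM in hearts labelled knockout and 16.00 to 16.15 log2 CPM in controls.

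NMDA receptors are cation channels that open when glutamate and a co-agonist, glycine or D-serine, are bound. They are tetramers in which GluN1, encoded by Grin1, is the obligatory subunit, while the GluN2 subunits bind glutamate and set the channel's conductance, block by magnesium and kinetics. GluN2C is known mainly from cerebellar granule cells and astrocytes, where it gives channels that are less sensitive to magnesium block.

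Grin2c lies on the minus strand of chromosome 11, 115249169 to 115267243 (mm10, annotated as GRCm38 by GENCODE). Its curated transcript has 15 exons and 4895 bases. Of the 4846 stretches of 50 bases in that transcript, 44 also occurred in a transcript of another gene. All 44 belonged to Gm25837, a predicted microRNA gene annotated inside Grin2c on the opposite strand. Copies that differ by mismatches were not searched. Gm25837 was the 1 annotated gene overlapping Grin2c, and it was not among the genes of the table.

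The promoter of Grin2c is shown as a window of fixed length before the annotated start. Its activity in these hearts and where their RNA starts were not measured. These are the 250 bases before the annotated start, at chr11:115267244-115267493 (GRCm38.p6, minus strand, RefSeq), written 5′ to 3′ with GC boxes in capitals. That start matches the GENCODE gene, which reaches 115267243. The RefSeq record of Grin2c reaches 115267297, so the part of the window nearest the start, with its GC boxes, lies inside that record.

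Grin2c promoter: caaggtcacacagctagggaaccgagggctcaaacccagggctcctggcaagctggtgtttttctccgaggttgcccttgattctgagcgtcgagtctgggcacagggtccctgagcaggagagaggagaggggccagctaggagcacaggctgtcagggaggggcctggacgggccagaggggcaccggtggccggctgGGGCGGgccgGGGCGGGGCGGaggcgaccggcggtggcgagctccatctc

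The GC box, GGGCGG searched on both strands, occurred 3 times, beginning 50, 40 and 35 bases before the start, the last pair sharing 1 base. At least 1 GC box was held by 56.9% of the 11036 promoters of genes in the table. G and C made up 68.8% of the bases, a content reached or passed by 18.5% of those promoters. Other motifs were searched on both strands and had 0 matches in this window. The TATA box, TATAAA, is held by 7.14% of the promoters of genes in the table, and the E-box, CANNTG, by 58.0%. The AP-1 motif, TGANTCA, is held by 4.58% of them and the antioxidant response element, TGACNNNGC, by 12.0%. The MCAT motif of muscle genes, CATTCC, is held by 10.8%, the motif AGATAA of GATA factors by 6.15%, and GGACAGC, the right part of the REST site, by 6.3%.

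Grin2c RNA was low in control hearts and much higher in each library labelled knockout. It stood at 5.30, 4.66 and 5.18 log2 CPM in replicates 6, 7 and 8, against 0.52, 0.41 and 1.65 log2 CPM in control replicates 3, 4 and 5. The groups did not overlap: the lowest value labelled knockout lay 3.01 log2 above the highest control, a wider step than the range inside either group (0.64 in hearts labelled knockout and 1.24 in controls).

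In reads, the same values were 383, 257 and 311 in replicates 6, 7 and 8 and 18, 11 and 30 in control replicates 3, 4 and 5. The 95% Poisson intervals, which cover counting error only, were 346 to 423, 226 to 290 and 277 to 348 reads in the hearts labelled knockout. In controls they were 10.7 to 28.4, 5.49 to 19.7 and 20.2 to 42.8 reads. The control level thus rests on few reads, and control replicate 5 held the most of them.

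The means were 5.05 ± 0.34 log2 CPM in hearts labelled knockout and 0.86 ± 0.69 log2 CPM in controls (SD, n = 3 libraries each). The log2 difference was 4.19. On the linear scale Grin2c averaged 33.6 CPM in hearts labelled knockout and 1.86 CPM in controls, 18.0-fold apart. In the ranking of all genes by mean level, it stood above 67.0% of the table in hearts labelled knockout and above 16.7% in controls. By log2 difference it held rank 13 from the top among 12516 tested genes, the values that led to its choice.

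**Figure D1:**
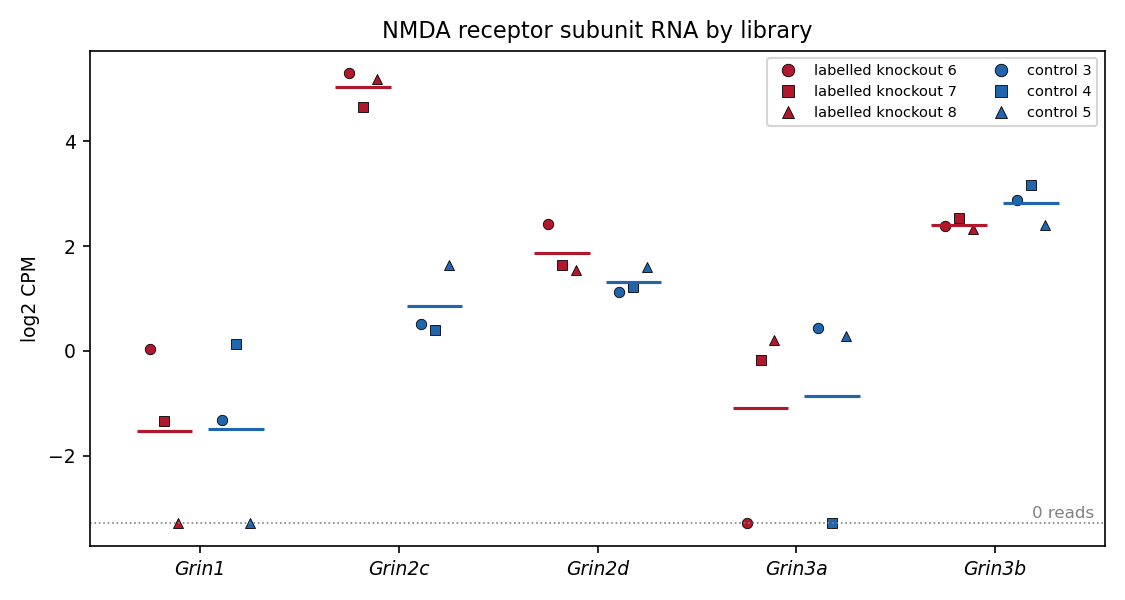
Level of each NMDA receptor subunit with values in the table, in log2 CPM. Points are 3 libraries of hearts labelled knockout (red, left of each pair) and 3 of control hearts (blue). Bars mark group means. Grin2c separates into values between 4.66 and 5.30 in hearts labelled knockout and between 0.41 and 1.65 in controls, while the groups overlap for Grin1, Grin2d, Grin3a and Grin3b; the dotted line marks 0 reads.

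The order of the 3 libraries labelled knockout differed from that of most genes. Of the 600 genes called higher in these libraries (limma, adjusted p under 0.05), replicate 8 was the lowest of the 3 for 460, replicate 6 for 107 and replicate 7 for 33. For Grin2c it was replicate 7. Its excess over the mean of the controls was 4.44 log2 in replicate 6, 3.80 log2 in replicate 7 and 4.33 log2 in replicate 8, so replicate 8 stood close to replicate 6 for this gene.

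Of the 4 other NMDA receptor subunits, 2 were too low to be tested and 2 did not pass the test. Grin1, the obligatory subunit, had 9, 3 and 0 reads in replicates 6, 7 and 8, against 4, 9 and 0 reads in control replicates 3, 4 and 5. Its mean over the libraries fell under the level required for testing, and in a fit without that requirement its log2 difference was -0.04 ± 1.23 (SE, limma adjusted p = 0.99). The standard error is wide because few reads underlie it. Grin3a, which encodes a glycine-binding subunit, had 0, 8 and 9 reads in hearts labelled knockout and 17, 0 and 11 reads in controls.

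Grin2d, the closest relative of Grin2c among the subunits measured, had 2.42, 1.65 and 1.54 log2 CPM in replicates 6, 7 and 8, against 1.12, 1.22 and 1.60 log2 CPM in control replicates 3, 4 and 5. The groups overlapped, with 0.55 log2 between the means (limma adjusted p = 0.49; 95% confidence interval -0.43 to 1.53). Grin3b, the other glycine-binding subunit, had 2.39, 2.53 and 2.32 log2 CPM in hearts labelled knockout, against 2.88, 3.17 and 2.39 log2 CPM in controls. The difference for Grin3b was -0.40 log2 (limma adjusted p = 0.49; 95% confidence interval -1.12 to 0.31). Grin2a and Grin2b were not among the genes of the table.

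Levels of different genes were compared per length, as CPM per kilobase of the curated transcripts. Grin2c made up 74.4%, 67.6% and 77.5% of the summed CPM per kilobase of the 5 NMDA receptor subunits in replicates 6, 7 and 8, against 8.76%, 6.9% and 21.5% in control replicates 3, 4 and 5. The other 4 subunits together came to 2.76, 2.46 and 2.15 CPM per kilobase in hearts labelled knockout and 2.84, 3.37 and 2.26 CPM per kilobase in controls. These sums overlapped between the groups.

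Among the ionotropic receptor genes, those of the channel subunits, Grin2c had the highest mean level in hearts labelled knockout, 6.86 ± 1.53 CPM per kilobase (SD, n = 3 libraries). It was followed by Grik5, the gene of a kainate receptor subunit, at 4.87 ± 1.98 CPM per kilobase, and the values of these neighbours overlapped. Grin3b came next at 1.59 ± 0.12, then Gria3, an AMPA receptor subunit gene, at 1.01 ± 0.55 and Grin2d at 0.68 ± 0.25 CPM per kilobase. In control hearts the order was Grik5 at 4.36 ± 0.89, Grin3b at 2.16 ± 0.57, Grin2d at 0.44 ± 0.08, Grin2c at 0.38 ± 0.21 and Gria3 at 0.37 ± 0.27 CPM per kilobase. The values of Grin2d, Grin2c and Gria3 overlapped there.

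Of the 14 receptor genes besides Grin2c, 5 were abundant enough to be tested and 0 passed in either direction, beside 9.66% of all 12516 genes tested (4.79% higher and 4.87% lower). Before adjustment, 1 of the 5 had a p under 0.05, against 24.8% of all tested genes, and limma-voom on the recovered reads called 0. The count stayed at 0 under each of the 16 alternatives, including the fit with all 14. The stricter threshold of 0.01, 1 of these alternatives, could not raise it. With 9.66% of all tested genes called, a count of 0 among 5 is near the background. The 9 genes under the level required for testing had at most 26 reads in any library, and 20 of their 54 library values were 0 reads. Among them, Gria1 and Gria2 of the AMPA receptors had 4 to 13 and 0 to 2.2 reads in hearts labelled knockout, against 1 to 26 and 0 to 13 reads in controls. Grik2 and Grik3 of the kainate receptors had 0 to 6 and 0 to 8 reads in hearts labelled knockout, against 4.67 to 8 and 0 to 3 reads in controls.

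Gria3 was the gene with the unadjusted p under 0.05. It had 0.80, 2.60 and 2.14 log2 CPM in replicates 6, 7 and 8, against 0.52, -0.87 and 1.39 log2 CPM in control replicates 3, 4 and 5. The groups overlapped, and the log2 difference of 1.499 ± 0.69 (SE) had a limma adjusted p of 0.20. Grik5 differed by 0.09 ± 0.31 on the log2 scale (SE, limma adjusted p = 0.90).

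Grina carries the receptor's name but encodes a membrane protein of the TMBIM family, not a subunit. It was far more abundant, with 6.93, 6.95 and 6.77 log2 CPM in replicates 6, 7 and 8, against 6.61, 6.38 and 6.33 log2 CPM in control replicates 3, 4 and 5. The groups did not overlap, and the log2 difference was 0.44 ± 0.14 (SE, limma adjusted p = 0.065). Without replicate 8 it passed the test, at 0.50 with an adjusted p of 0.028. With any other library left out it did not (limma adjusted p = 0.10 to 0.25). The fit without replicate 8 also called the most genes over all tested.

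**Figure D2:**
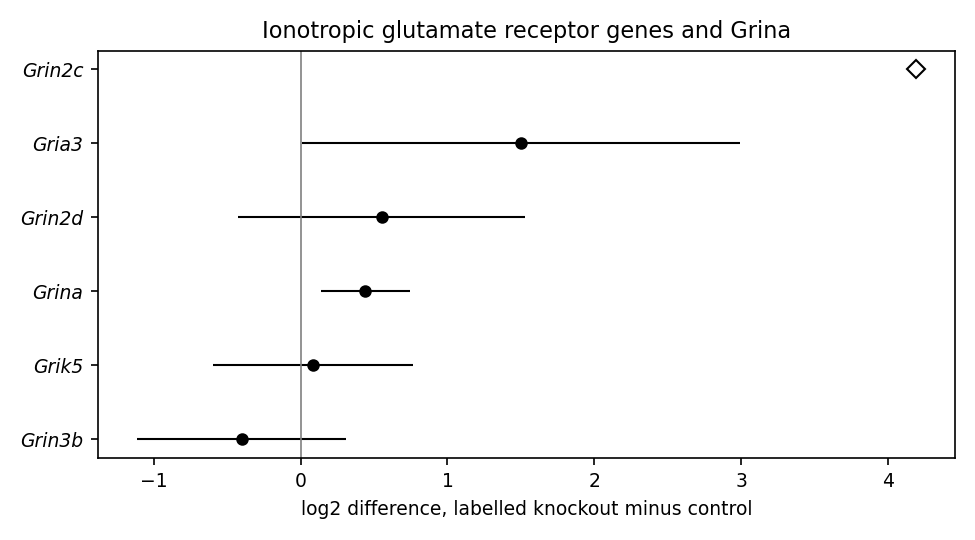
Log2 difference, labelled knockout minus control, for the ionotropic receptor genes abundant enough to be tested and for Grina, with 95% confidence intervals of the limma fit. Grin2c, at 4.19, is drawn without an interval because it was chosen for this difference; the other 5 lie between -0.40 and 1.499.

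**Figure D3:**
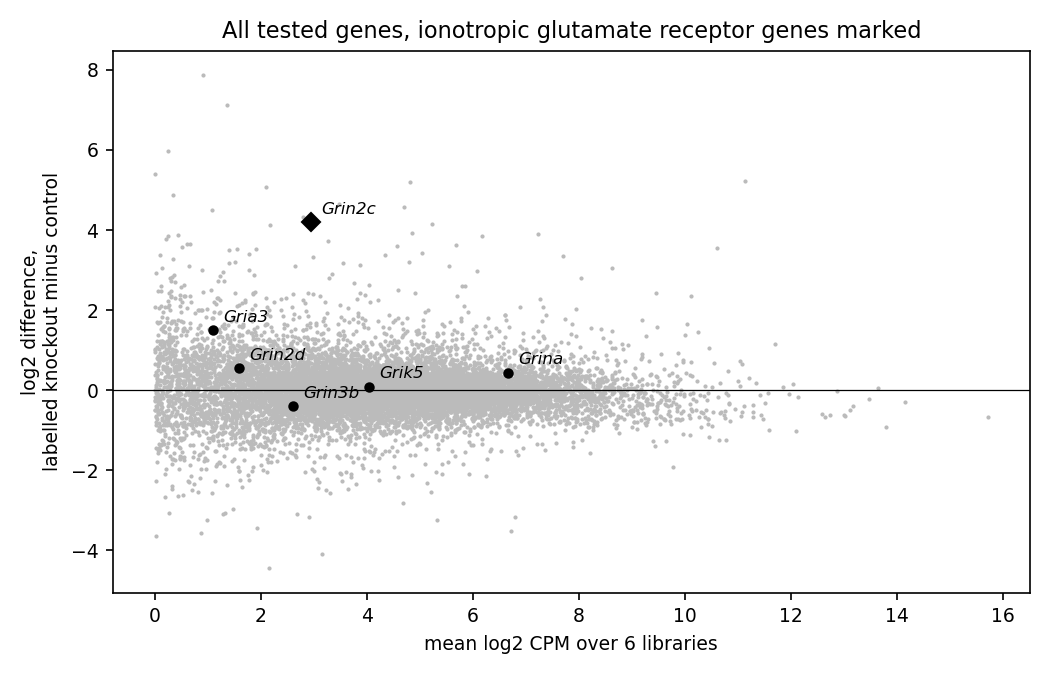
Log2 difference, labelled knockout minus control, against mean log2 CPM over 6 libraries for 12516 tested genes (grey), with the tested ionotropic receptor genes and Grina marked in black. Grin2c (diamond) lies at 4.19 above a median over all genes of -0.01.

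Genes for the partners of glutamate receptors were examined next. Auxiliary subunits and postsynaptic scaffold proteins hold these receptors in the membrane and tie them to signalling enzymes. Of 40 listed, 19 were tested, 2 were called higher, 1 was called lower and 16 did not pass, with a median log2 difference of -0.04 (all tested genes: 4.79% higher, 4.87% lower, median -0.01).

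Dlgap4, of a family of scaffold proteins that bind PSD-95, rose, with 6.79, 6.81 and 6.40 log2 CPM in replicates 6, 7 and 8, against 5.87, 5.65 and 5.91 log2 CPM in control replicates 3, 4 and 5 (0.85 ± 0.16, log2 difference and SE, limma adjusted p = 0.0059). Grip1, a PDZ protein that binds AMPA receptors, rose by 2.03 ± 0.58 on the log2 scale (adjusted p = 0.044). Homer2, a scaffold of metabotropic receptors, fell by 0.63 log2 (adjusted p = 0.015), with 5.94, 5.71 and 5.77 log2 CPM in hearts labelled knockout and 6.49, 6.46 and 6.36 log2 CPM in controls. With 1 library left out, the calls ended for Dlgap4 (without control 4, adjusted p = 0.051), for Homer2 (without any 1 control, adjusted p up to 0.089) and for Grip1 (without any 1 library but replicate 8, adjusted p up to 0.19; limma-voom 0.054). Shank3, a scaffold that binds HOMER proteins, had a log2 difference of -0.51 ± 0.16 and was not past the test (adjusted p = 0.068).

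Of 34 genes for the trafficking and signalling of NMDA receptors, 27 were tested, of which 5 were called higher, 0 lower and 22 not past the test, with a median of 0.05. Over all tested genes 4.79% were called higher and 4.87% lower. Lrp8, 1 of the 5, was known to differ when the list was written. The share called higher is therefore no result about the list. Ptk2b, the gene of PYK2, a tyrosine kinase activated by calcium that acts on NMDA receptors through SRC, rose by 1.80 ± 0.20 (log2, SE, limma adjusted p = 0.0004). It had 5.61, 5.98 and 5.39 log2 CPM in replicates 6, 7 and 8, against 3.77, 3.88 and 3.92 log2 CPM in control replicates 3, 4 and 5. Src rose by 1.35 ± 0.33 (adjusted p = 0.022), with 3.39, 3.32 and 3.09 log2 CPM in hearts labelled knockout and 2.14, 1.53 and 2.09 log2 CPM in controls.

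Lrp8, a receptor for reelin that is coupled to NMDA receptors in neurons, had 4.37, 5.04 and 3.32 log2 CPM in replicates 6, 7 and 8, against 1.43, -0.38 and -0.72 log2 CPM in control replicates 3, 4 and 5. Lrp8 was already known to differ in these libraries when the lists were written. Nrg1, which encodes neuregulin-1, a ligand of ERBB receptors that can raise GluN2C in cerebellar neurons, rose by 2.35 ± 0.61 (log2, SE, limma adjusted p = 0.029). Its values were 1.80, 2.43 and 1.28 log2 CPM in hearts labelled knockout and -0.52, -0.87 and -0.13 log2 CPM in controls, from 107 and 20 reads in all. Calm2, 1 of the calmodulin genes, rose by 0.46 ± 0.13 (adjusted p = 0.045). The calls of Src and Nrg1 ended without any 1 library but replicate 8 (adjusted p up to 0.097 and 0.14), and that of Calm2 with any 1 library left out (adjusted p up to 0.20). Those of Ptk2b and Lrp8 held with any 1 library left out (adjusted p up to 0.0061 and 0.014).

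Of 35 genes that supply or remove glutamate, glycine and D-serine, 25 were tested, with 3 higher, 3 lower, 19 not past the test and a median of -0.01, beside 4.79% higher and 4.87% lower over all tested genes. Glul, glutamine synthetase, which turns glutamate into glutamine, rose by 1.03 ± 0.22 (log2, SE, limma adjusted p = 0.012), with 9.01, 9.97 and 9.05 log2 CPM in replicates 6, 7 and 8 and 8.34, 8.42 and 8.18 log2 CPM in control replicates 3, 4 and 5. Slc38a1, a glutamine transporter, and Shmt1, which interconverts serine and glycine, rose by 1.10 ± 0.29 and 1.34 ± 0.31 (adjusted p = 0.032 and 0.018).

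The 3 genes that fell encode transaminases, enzymes that exchange amino groups between glutamate and other amino acids. Gpt2, the mitochondrial alanine form, fell by 1.32 log2 (adjusted p = 0.0041), Gpt, its cytosolic counterpart, by 1.16 (adjusted p = 0.013) and Got1, a cytosolic aspartate form, by 0.51 (adjusted p = 0.048). Gpt2 had 4.61, 3.78 and 4.58 log2 CPM in hearts labelled knockout, against 5.50, 5.76 and 5.67 log2 CPM in controls. The call of Gpt2 held with any 1 library left out (adjusted p up to 0.036). The calls of Glul and Gpt ended without control 4 or 5 (adjusted p up to 0.078 and 0.083), that of Shmt1 without replicate 7 or control 4 or 5 (up to 0.10), that of Slc38a1 without replicate 6 or 7 or control 3 or 4 (up to 0.15) and that of Got1 without any 1 library but replicate 8 (up to 0.19). In a fit without the intensity trend, Ptk2b and Nrg1 alone among the genes called in these 3 lists stayed past the test (adjusted p = 0.028 and 0.047).

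Other channels opened by neurotransmitters or ATP were searched for the same pattern. Of 49 listed subunits of nicotinic, GABA, glycine, serotonin and P2X receptors, 8 were tested and 0 passed in either direction, in the limma fit and in each of the 16 alternatives, limma-voom included. With 9.66% of all tested genes called, a count of 0 among 8 is near the background, and 2 of the 8 had an unadjusted p under 0.05. The smallest p-values belonged to Gabrr2, a GABA receptor subunit, with a log2 difference of -1.74 ± 0.67, and to P2rx4, an ATP-gated channel, with 0.49 ± 0.22 (SE, adjusted p = 0.13 and 0.19). P2rx7, another ATP-gated channel, and Chrnb1, a muscle nicotinic subunit, differed by 0.92 and 0.45 log2.

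Markers of the cells that could carry Grin2c RNA were measured beside it. Of 20 neuronal markers, 10 had values and 4 were tested, of which Uchl1 was called higher and 0 lower, beside 4.79% higher and 4.87% lower over all tested genes. Uchl1 encodes a ubiquitin hydrolase abundant in neurons, and it had 1614, 1346 and 238 reads in replicates 6, 7 and 8, against 143, 89 and 71 reads in control replicates 3, 4 and 5 (limma adjusted p = 0.0024; 0.062 with a robust fit and 0.068 without the intensity trend). The summed level of the neuronal list was 45.0 to 193.8 CPM in hearts labelled knockout and 19.9 to 29.0 CPM in controls, most of it Uchl1 in the hearts labelled knockout. Replicate 8 was far below replicates 6 and 7 for Uchl1 but not for Grin2c. Dbh, which marks noradrenergic nerves, had 3, 2 and 3 reads in hearts labelled knockout and 24, 31 and 9 reads in controls. Prph, peripherin of peripheral neurons, had 32, 8 and 13 reads in hearts labelled knockout and 5, 0.67 and 1 reads in controls. Nefm, Slc18a2 and Gap43 had at most 22 reads in any library. The other tested markers, Tubb3, Npy and Stmn2, differed by 1.61, 0.40 and -0.20 log2 and were not past the test.

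Of 13 markers of Schwann cells and glia, 11 had values and 8 were tested, with 1 called higher and 0 lower, beside 4.79% higher and 4.87% lower over all tested genes. Their summed level was 78.3 to 84.2 CPM in hearts labelled knockout and 65.9 to 74.4 CPM in controls, most of it Pmp22 and Erbb3. Pmp22, a myelin protein also made by other cells, rose by 0.84 log2 (limma adjusted p = 0.014), a call that ended without control 4 or 5 (up to 0.085).

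The other 7 tested glial markers had differences of both signs and were not past the test. Among them were 1.51 log2 for Foxd3, -0.20 for Cdh19, -0.40 for Erbb3 and -1.41 log2 for Aqp4, the water channel of astrocytes. Sox10, a transcription factor that defines these cells, had 34, 10 and 20 reads in hearts labelled knockout, against 61, 31 and 49 reads in controls, and Gfra3 had 37, 21 and 25 reads in hearts labelled knockout, against 35, 34 and 27 reads in controls. Below the level required for testing, Mbp had 10.2, 7.38 and 0.75 reads in hearts labelled knockout and 1.5, 1.25 and 0 reads in controls. Ngfr had 22, 1 and 7 reads in hearts labelled knockout and 0, 3 and 7 reads in controls, and S100b had 1, 1 and 0 reads in hearts labelled knockout, against 12, 0 and 12 reads in controls.

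Markers of the other cell types of the heart were set beside these, with 4.79% of all tested genes called higher and 4.87% lower. Of 16 cardiomyocyte markers 7 were called lower and 0 higher, with a summed level of 103900 to 144600 CPM in hearts labelled knockout and 169500 to 186700 CPM in controls. They were the sarcomere genes Tnni3 (-1.01 log2), Ttn (-0.67) and Myl7 (-2.53), the calcium handling genes Ryr2 (-0.67), Atp2a2 (-0.92) and Pln (-0.74), and Ckm, muscle creatine kinase (-0.98). Without control 5, 0 of them were called lower, and without replicate 8, 12 cardiomyocyte markers were. For Myl7 the groups overlapped, and with a robust fit its limma adjusted p was 0.21.

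Of 13 fibroblast markers 7 were called higher and 0 lower, with 5860 to 11140 CPM in hearts labelled knockout and 3546 to 4439 CPM in controls. They were the collagen genes Col1a1 (1.57 log2), Col1a2 (1.75) and Col3a1 (1.65), the matrix genes Postn (3.35), Mfap5 (2.61) and Dcn (0.78), and Pi16 (1.73). With 1 library left out, 5 to 8 were called higher, and without the intensity trend 1 was. A robust fit ended the calls of Postn, Col1a2, Col3a1 and Col1a1 (limma adjusted p = 0.07, 0.065, 0.079 and 0.12). Markers of epicardium and mesothelium summed to 35.2 to 112.9 CPM in hearts labelled knockout and 17.8 to 23.2 CPM in controls, with 3 of 6 tested called higher (2 to 3 with 1 library left out). These were the keratin genes Krt8 (5.97) and Krt18 (4.32) and mesothelin, Msln (2.21), while Aldh1a2 was at 0.99 log2 and not past the test. In replicates 6 and 7, most of the sum of this list was Krt18 and Krt8.

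Of 11 endothelial markers, Npr3 (1.05 log2) and Vwf (0.61) were called higher and Kdr (-1.07) lower, with Flt1 (-0.58) not past the test. Their sum was 1593 to 2013 CPM in hearts labelled knockout and 2094 to 2194 CPM in controls, and with 1 library left out 0 to 2 were called higher and 0 to 4 lower. Of 12 macrophage markers, Itgam (0.97) was called higher, and Lyz2 (0.40), Cd68 (0.32) and Mrc1 (0.42 log2) were not past the test. Their sum was 1282 to 1459 CPM in hearts labelled knockout and 1048 to 1138 CPM in controls, and 0 to 1 was called higher with 1 library left out.

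Of 10 markers of smooth muscle and pericytes, Cspg4 (0.83) was called higher and Abcc9 (-0.85) lower, with Acta2 (0.74) and Kcnj8 (-0.34 log2) not past the test. Of 3 tested skeletal muscle markers, Acta1 (2.42) and Tnnt3 (3.11) were called higher and Tnni2 (-1.88 log2) was not past the test. Leaving out 1 library gave 1 to 2 higher. The list summed to 1012 to 2506 CPM in hearts labelled knockout and 288 to 357 CPM in controls, most of it Acta1. Acta1 had 4737, 2543 and 2851 reads in control replicates 3, 4 and 5, while Tnnt3 had 14.2, 1 and 5 there. Myh2, Myod1 and Myog had no values. Cfd, the 1 adipocyte marker tested, was called lower (-3.09 log2), though its groups overlapped. That list summed to 0.94 to 2.87 CPM in hearts labelled knockout and 4.44 to 29.0 CPM in controls. Of the lymphocyte and erythroid markers 0 were past the limma test, 0 by limma-voom and 0 at an unadjusted p under 0.05, with Cd79a, Cd79b and Ms4a1 between -0.35 and 0.14 log2 and Hbb-bt, Hbb-bs and Alas2 between -0.51 and 0.12 log2.

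Among the marker genes named, the calls of Uchl1, Mfap5, Postn, Pi16, Dcn, Col1a2, Krt18, Krt8 and Acta1 held with any 1 library left out, and those of the others ended without at least 1 library. In whole hearts a change in the number of cells of a type and a change in RNA per cell cannot be told apart. Which cells held the Grin2c RNA, and the part of these shifts in it, was not tested.

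The genes beside Grin2c on chromosome 11 were compared next. The sources used here do not say whether reads were counted by strand. Fdxr, the gene of ferredoxin reductase, an enzyme of mitochondrial electron transfer, lies upstream on the same strand (115268024 to 115277101), 727 bases beyond the RefSeq record of Grin2c, which reaches 115267297. It had 4.81, 3.90 and 4.11 log2 CPM in replicates 6, 7 and 8, against 3.56, 3.34 and 3.72 log2 CPM in control replicates 3, 4 and 5. The groups did not overlap, but the log2 difference of 0.73 ± 0.27 (SE) was not past the test (limma adjusted p = 0.11), and without replicate 6 it was 0.47.

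Fads6, of the fatty acid desaturase family, is the next gene on that side, also on the minus strand (115278626 to 115297731). It had 31, 13 and 5 reads in replicates 6, 7 and 8, against 6, 0 and 0 reads in control replicates 3, 4 and 5, under the level required for testing. In the fit without that requirement its log2 difference was 3.02 ± 1.01 (SE, limma adjusted p = 0.097). Tmem104 ends 2144 bases past the other end of Grin2c on the opposite strand, and its groups overlapped (3.17, 3.69 and 3.89 log2 CPM in hearts labelled knockout, 3.27, 3.06 and 3.76 log2 CPM in controls). Nat9, Slc9a3r1 and Hid1, the next genes outward, overlapped as well, with log2 differences of 0.28, 0.10 and 0.41 (adjusted p = 0.51, 0.87 and 0.57).

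Per length, Grin2c in hearts labelled knockout (6.86 CPM per kilobase) lay between Fdxr (10.2 ± 3.58) and Tmem104 (2.66 ± 0.64), while in controls it lay below both (0.38, against 5.95 ± 0.78 for Fdxr and 2.28 ± 0.59 for Tmem104). The difference in mean level was larger for Grin2c, with 33.6 CPM in hearts labelled knockout and 1.86 CPM in controls, than for Fdxr, with 19.97 CPM in hearts labelled knockout and 11.6 CPM in controls. Whether reads of transcription from Fdxr enter the Grin2c value was not tested.

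**Figure D4:**
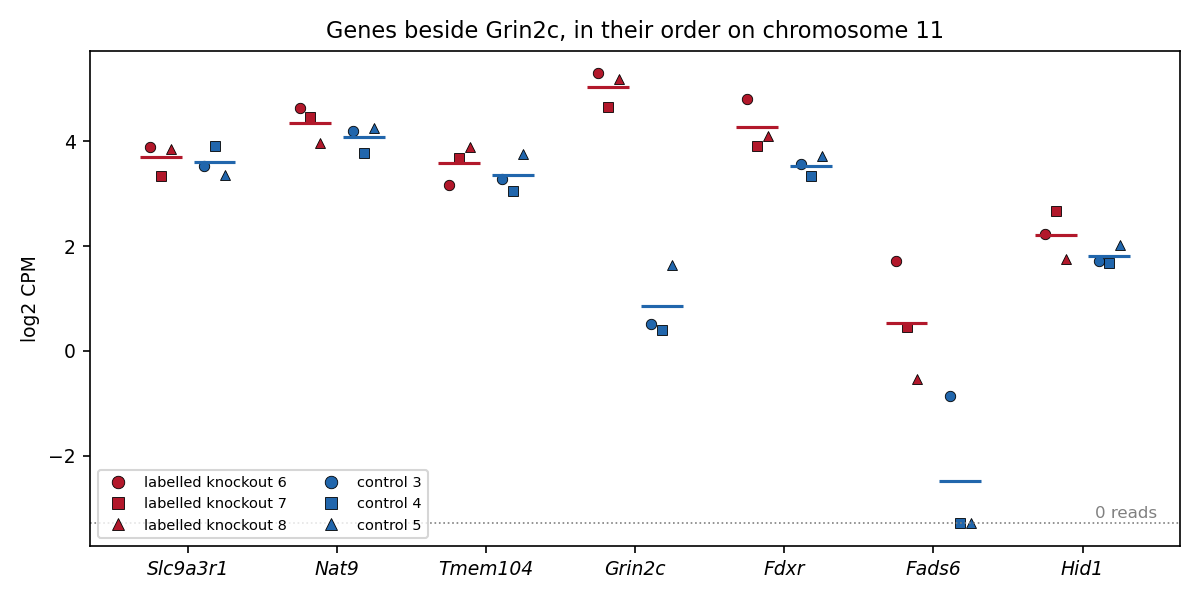
Level in log2 CPM of Grin2c and the 3 genes of the table on each side of it, in chromosome order, for hearts labelled knockout (red, left of each pair) and control hearts (blue), 1 point per library and a bar at each group mean. The groups are apart for Grin2c, for Fdxr by a small step, and for Fads6 at 0 to 31 reads, and they overlap for the other 4 genes.

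Last, the genes whose profile was most like that of Grin2c were listed. Likeness was the root mean square difference over the 6 libraries after each gene's own mean was subtracted from its log2 CPM, among 12515 genes. It follows the difference between the groups by construction, so it is given as a description. The median over all genes was 2.17 log2 and the smallest value was 0.54 log2, for Nlrc3, a regulator of innate immune signalling. Nlrc3 had 4.11, 3.78 and 3.11 log2 CPM in replicates 6, 7 and 8, against -0.45, 0.14 and 0.74 log2 CPM in control replicates 3, 4 and 5.

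The next 7 were Map1a, a microtubule-associated protein of neurons and muscle (0.75), Ankrd1, a stress-responsive protein of the sarcomere (0.76), Cpxm2, a carboxypeptidase-like protein (0.78), Lman1l, a lectin related to cargo receptors of the secretory pathway (0.82), Nppb, B-type natriuretic peptide (0.83), Timp1, a metalloprotease inhibitor (0.84), and Cyp1b1, a cytochrome P450 (0.86 log2). Lman1l had 1, 0 and 1 reads in control replicates 3, 4 and 5. It reached the level required for testing through the hearts labelled knockout alone. Pearson's r with Grin2c over the 6 libraries was 0.93 to 0.98 for the 8 genes of most similar profile, whose points share the 2 groups. In all 8, replicate 8 was the lowest of the libraries labelled knockout, whereas for Grin2c it was replicate 7.

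**Figure D5:**
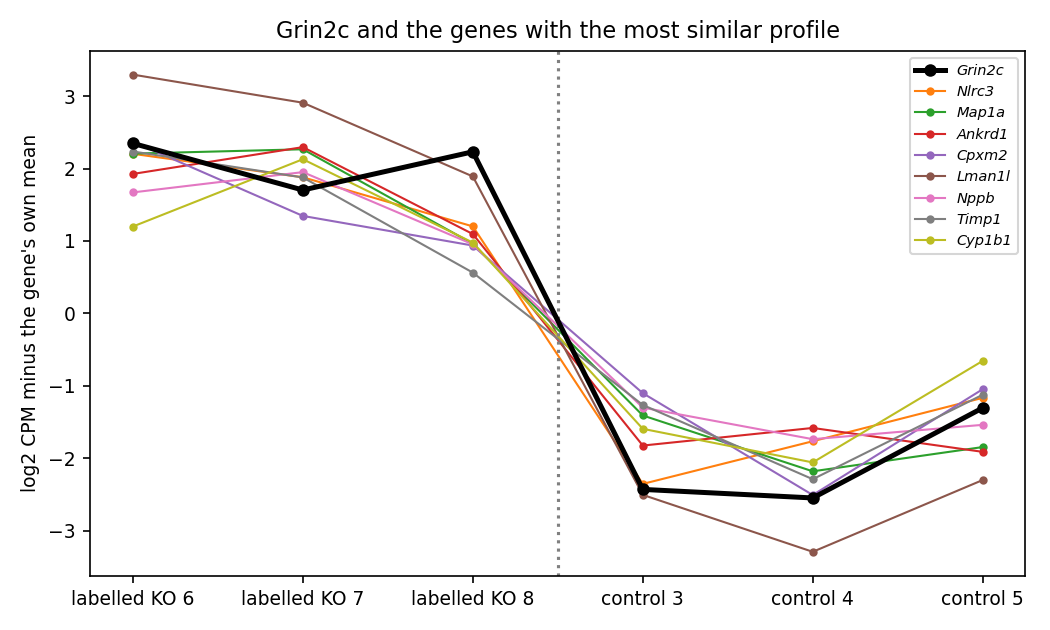
Log2 CPM minus the gene's own mean for Grin2c (black) and the 8 genes of most similar profile. Shown are 3 libraries labelled knockout (left of the dotted line) and 3 control libraries. The 8 genes drop at replicate 8 while Grin2c does not.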

How the data were processed

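RNA sequencing of 6 mouse heart libraries (3 per group) was analysed from a table of log2 CPM for 14133 genes that the authors deposited. The submitters' processing notes name the build mm10 and the tools HISAT2, CASAVA and edgeR, giving neither roles nor versions; these sources do not say whether reads were counted by strand. The lowest value was -3.29 log2 CPM in every library, which shows a shared pseudocount. Whole reads were recovered from the spacing of low values (83.6% to 84.9% of values whole within 0.01).

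limma 3.58.1 (R 4.3.3) was fitted to the 12516 genes averaging 0 log2 CPM or more, with an intensity trend, two-sided tests, Benjamini-Hochberg adjustment and a threshold of 0.05; the procedure was checked on simulated data. The mean over both groups could reach this level through 1 group alone. Among genes named as called, it was under 0 log2 CPM in controls for Krt8, Tnnt3, Nrg1 and Grip1. In hearts labelled knockout it was under 0 for Cfd. Lengths came from GENCODE M21 transcripts with NM identifiers. The members, lists and tests were chosen with earlier results of these data known. Values of single metabotropic receptor genes and of a few markers are not reported here. The text names the ionotropic receptor rows, Txn1, list members past the test or among the 4 smallest p-values, 3 neighbours on each side and 8 genes of similar profile. Myh6 and further neuronal and glial markers were named after their values were seen. Alternatives covered filter, scaling, pseudocount, variance model, limma-voom, threshold and each library left out.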

Additional observations from a re-analysis of the deposited data

How the results depend on the processing

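The Grin2c log2 difference was 4.19, and 3.96 to 4.58 with 1 library left out. It was 3.62 on the log2(CPM + 1) scale, which by construction shrinks a difference from a low level, 4.27 without any pseudocount and 4.12 after quantile normalization. The receptor genes besides Grin2c gave 0 calls in each of the 16 alternatives. Only 5 of them were tested in the main fit, where 9.66% of all tested genes were called, so 0 is near the background. The count of all genes called higher was 600, against 71 without the intensity trend, 230 with a threshold of 0.01 and 242 to 1010 with 1 library left out. The count of all genes called lower was 609, against 50, 202 and 161 to 1175 under the same settings. Among the fits with 1 library left out, both counts were smallest without control 4 and largest without replicate 8; the cause was not tested. Of 42 named genes with a call, the 8 genes of similar profile not counted, 12 kept the call whichever library was left out. No paired analysis was possible because the groups share no replicate numbers. Few reads underlie the values of Grin1 and the control level of Grin2c, at 11 to 30 reads.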
